A study of Mus musculus with 6 samples.

Results

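The expression of 10 immediate early genes was followed in single cells sorted from the mouse amygdala: Fos, Fosb, Jun and Junb, Egr1 and Nr4a1, Ier2 and Ier3, and Btg2 and Dusp1. They were taken from a list of gene names, and all 10 were found among the 32285 genes counted. Cells were classed by 4 other genes. A barcode with at least 20 unique molecular identifiers (UMIs, each standing for 1 captured RNA molecule) of the glutamate transporters Slc1a2 and Slc1a3 together and at most 3 of Vtn and Rgs5 was called an astrocyte. A barcode with at least 10 UMIs of Vtn and Rgs5 and at most 5 of Slc1a2 and Slc1a3 was called a pericyte, the mural cell that wraps brain capillaries. Of 13546 barcodes, 8757 were astrocytes and 2260 were pericytes, and 2529 were neither.

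The cells came from 16 male wildtype C57BL/6N mice, 4 in each of 4 groups, pooled under hashtag antibodies into 3 libraries. NoFC mice were placed in the conditioning chamber without foot shock, and FC mice received foot shocks there. NoFR mice were conditioned and stayed in the home cage 1 day later, whereas FR mice were conditioned and returned to the chamber 1 day later to recall the fear. The amygdala was taken 90 min after the behaviour began, and was dissociated in actinomycin D, triptolide and anisomycin, which block transcription and translation, in all 4 groups alike. Cells were sorted on ACSA-2, an antibody against ATP1B2, and the mice carried no transgene.

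Immediate early genes are transcribed within minutes of a stimulus from transcription factors that are already present in the cell, so that no new protein has to be made first. Kinases of the ERK pathway act on SRF with its ELK partners, and cyclic AMP and calcium act on CREB, and these factors bind the promoters directly. In the amygdala Fos and Egr1 RNA is widely used to mark cells that were active during learning, and in blood vessels the same genes respond to growth factors and to stretch. The products are the AP-1 proteins (Fos, Fosb, Jun, Junb), other DNA-binding factors (Egr1, Nr4a1), and proteins that curb growth or signalling or have looser roles (Btg2, Dusp1, Ier2, Ier3).

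The genes lie on 8 chromosomes of the mouse genome (GRCm38, GENCODE vM21) and span 1240 to 56539 bases. Jun (chr4:95049034-95052222) overlaps the antisense gene Junos, and Junb (chr8:84974484-84978718) overlaps Prdx2 on the other strand. The annotated span of Dusp1 overlaps 4 genes, AC122252.4 and AC122252.1 on its own strand and Gm8225 and Ergic1 on the other. The effect of these overlaps on the counts was not tested. No annotated gene overlaps the other 7. Promoter sequences were found in RefSeq (GRCm38.p6) for 8 of the 10; Egr1 and Ier2 had no entry. The 250 bases before the transcription start of 4 genes are shown because these genes span the range of where the RNA was found: Fos leaned most towards astrocytes, Ier3 was nearly all in pericytes, and Btg2 and Dusp1 were found in both classes. The starts are those of RefSeq. For Dusp1 and Ier3 they lie inside the span annotated by GENCODE, and so do all the Dusp1 bases and the last Ier3 bases shown. Capitals mark TGACG on either strand, the core of the site that CREB binds. The windows are chr12:85473640-85473889 on the plus strand for Fos, chr17:35821463-35821712 on the plus strand for Ier3, chr1:134079156-134079405 on the minus strand for Btg2 and chr17:26508473-26508722 on the minus strand for Dusp1, each written 5′ to 3′.
Fos: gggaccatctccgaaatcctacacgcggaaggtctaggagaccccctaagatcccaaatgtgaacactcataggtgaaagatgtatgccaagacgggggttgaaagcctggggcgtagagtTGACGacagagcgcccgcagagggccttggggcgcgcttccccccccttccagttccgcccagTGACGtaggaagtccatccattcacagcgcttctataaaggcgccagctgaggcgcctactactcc
Btg2: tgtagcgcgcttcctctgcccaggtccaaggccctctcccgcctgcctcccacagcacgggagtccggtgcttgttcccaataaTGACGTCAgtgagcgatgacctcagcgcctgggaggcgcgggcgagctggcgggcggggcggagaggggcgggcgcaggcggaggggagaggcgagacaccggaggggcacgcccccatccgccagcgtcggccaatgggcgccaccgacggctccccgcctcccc
Dusp1: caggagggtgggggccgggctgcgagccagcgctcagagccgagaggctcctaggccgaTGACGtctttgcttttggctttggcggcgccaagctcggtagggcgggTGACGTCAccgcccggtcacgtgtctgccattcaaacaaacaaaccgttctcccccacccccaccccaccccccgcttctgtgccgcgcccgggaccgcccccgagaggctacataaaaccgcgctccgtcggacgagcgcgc
Ier3: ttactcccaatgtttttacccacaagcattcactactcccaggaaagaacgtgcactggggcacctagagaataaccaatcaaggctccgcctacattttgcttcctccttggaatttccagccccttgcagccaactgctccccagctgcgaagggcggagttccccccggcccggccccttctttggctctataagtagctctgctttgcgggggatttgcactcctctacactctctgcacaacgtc
TGACG was found on either strand in 6 of the 8 promoters, those of Fos, Fosb, Junb, Btg2, Nr4a1 and Dusp1, whereas 17.8% of all 32851 promoters of this length held it. The Fos match nearest the start lay 61 bases before it, and those of Btg2 and Dusp1 lay 158 and 135 bases before it. The full palindrome TGACGTCA, which holds TGACG on both strands, was found in Btg2 and Dusp1 and in 1.55% of all promoters. The EGR motif GCGNGGGCG was found in Fosb, Btg2 and Nr4a1 (4.70% of all promoters), and TATAAA in Fos (12.4%). The AP-1 site TGANTCA (6.75%) and the CArG box of SRF (1.47%) were found in none of the 8 windows. Sites further than 250 bases before the start, and those of Egr1 and Ier2, were not searched, so their absence from these promoters cannot be read. These matches are of letters only, and binding was not measured.

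The libraries held 31700569 to 42350059 UMIs each. Astrocytes had a median of 9891 UMIs and pericytes of 5006, so shares of cells were compared after each cell was thinned to 4000 UMIs, which 8024 astrocytes and 1709 pericytes reached. The labelled cell type is astrocyte. The astrocyte rule was met by 8757 barcodes, and 338 of these carried Sox11 or division genes, as described below. The label did not hold for the pericytes. In them Atp1b2, the sorted antigen, stood at 676 CPM (UMIs scaled to a common total for each class) against 814 in astrocytes. Gfap had 0 UMIs in pericytes. The pericyte markers Kcnj8, Abcc9 and Higd1b stood in astrocytes at 0.0398% to 0.0510% of their pericyte level, and Pdgfrb and Notch3 at 4.13% and 3.85%. Aqp4 and Gja1 stood in pericytes at 0.934% and 0.930% of their astrocyte level. The endothelial genes Cldn5, Pecam1, Flt1 and Ly6c1 summed to 134 to 143 CPM in the pericytes of the libraries and to 1.29 to 5.51 CPM in astrocytes. Flt1 alone was at 131 CPM over all pericytes and was found in 36.7% of them. No doublet caller was run. Between libraries 3 to 8 barcodes were shared.

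The 2 classes carried different immediate early genes. Fos and Jun were higher in astrocytes, and Junb, Egr1, Ier2, Ier3, Btg2, Nr4a1 and Dusp1 were higher in pericytes. The members' class differences stand against a broad background, since 42.8% of 15362 genes tested were higher in astrocytes and 36.9% were higher in pericytes at an adjusted p under 0.05 (edgeR quasi-likelihood test on counts summed per library and class, with library as a block). The members called were 2 of 10 in the first direction and 7 of 10 in the second. With so many genes called, a call alone says little, and the sizes are described here. A level below is a library's CPM. A difference is the log2 ratio of astrocytes over pericytes fitted by edgeR, with its standard error, and the folds are taken from it. The fit scales the sums further (TMM), so its ratios differ somewhat from those of the CPM levels.

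**Figure D1:**
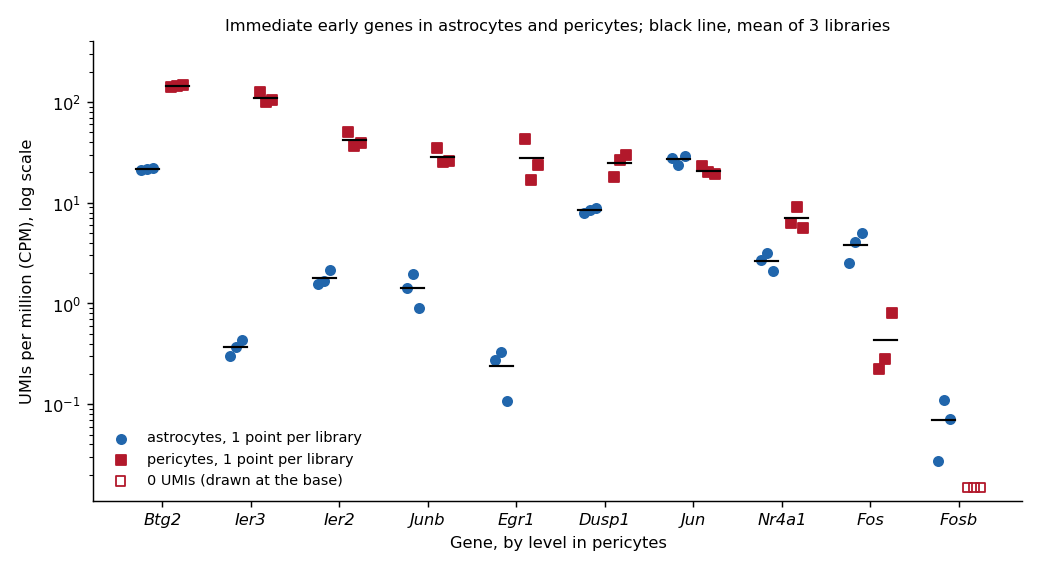
CPM (log scale) of each immediate early gene in astrocytes (circles) and pericytes (squares), with 1 point per library and a black line at the mean of the 3 libraries; open squares mark libraries with no Fosb UMI. Ier3 (263-fold in the edgeR fit) and Egr1 stand furthest apart with pericytes higher. The Jun classes lie close together (1.49-fold in the fit), and Fos is higher in astrocytes. Fitted folds differ somewhat from the ratios of the CPM drawn.

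Among the AP-1 genes, Fos, whose protein pairs with a JUN partner to bind DNA, was at 2.5, 4.05 and 5.0 CPM in the astrocytes of libraries 1, 2 and 3 and at 0.226, 0.283 and 0.805 CPM in the pericytes. The classes did not overlap, and the pericyte values rest on 5 UMIs against 340 in astrocytes. The Fos level in pericytes was 11.5% of that in astrocytes, against 0.934% for Aqp4 and 0.930% for Gja1, and rests on 5 UMIs. The log2 difference was 3.33 ± 0.466 (adjusted p = 3.29e-07). Jun, the partner of FOS in AP-1, was at 28.1, 23.6 and 28.9 CPM in astrocytes and at 23.1, 20.1 and 19.1 CPM in pericytes. This was the smallest difference of the list (0.58 ± 0.102, adjusted p = 1.13e-05), and it missed the threshold when counts were summed per mouse with the mouse as a block (0.27, adjusted p = 0.486). Junb, a JUN protein that activates weakly and can restrain JUN, was at 1.43, 1.95 and 0.899 CPM in astrocytes and at 34.6, 25.2 and 25.8 CPM in pericytes (−4.13 ± 0.198, adjusted p = 8.81e-17). Fosb had 6 UMIs in all astrocytes and 0 in pericytes, where a count of 0 allows up to 0.257 CPM, so that no difference could be read.

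The DNA-binding factors Egr1 and Nr4a1 were both higher in pericytes, to very different degrees. Egr1, a zinc finger factor induced by ERK signalling, was at 0.274, 0.332 and 0.108 CPM in astrocytes and at 42.8, 17.0 and 23.6 CPM in pericytes. Its log2 difference was −6.65 ± 0.276 (adjusted p = 2.86e-18), and its astrocyte level was 0.834% of the pericyte level. Nr4a1, an orphan nuclear receptor, was at 2.69, 3.17 and 2.09 CPM in astrocytes and at 6.34, 9.04 and 5.64 CPM in pericytes (−1.18 ± 0.241, adjusted p = 7.91e-05).

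Of the remaining genes, Ier3, whose product protects cells from death and modulates ERK signalling, differed most: 0.302, 0.368 and 0.431 CPM in astrocytes and 127, 99.5 and 104 CPM in pericytes. Its astrocytes were 263-fold lower (−8.04 ± 0.133, adjusted p = 1.39e-27). The Ier3 level in astrocytes was 0.324% of that in pericytes, which with the 0.834% of Egr1 lies above the 0.0398% to 0.0510% of Kcnj8, Abcc9 and Higd1b and below the 3.85% and 4.13% of Notch3 and Pdgfrb. They rest on 33 UMIs of Ier3 and 22 of Egr1 in all astrocytes, and whether astrocytes made this RNA was not tested. Ier2, a nuclear protein with a role in transcription, was at 1.56, 1.69 and 2.16 CPM in astrocytes and at 50.0, 37.0 and 39.5 CPM in pericytes (20.5-fold, −4.35 ± 0.158, adjusted p = 1.19e-19). The Ier2 and Junb levels in astrocytes were 4.17% and 4.91% of those in pericytes, just above that of Pdgfrb.

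Btg2, which restrains cell division and recruits the deadenylases that shorten RNA tails, was at 21.2, 21.4 and 21.9 CPM in astrocytes and at 140, 145 and 148 CPM in pericytes. It varied least between libraries of all members, and its 5.8-fold difference (−2.54 ± 0.0606, adjusted p = 6.30e-24) was far larger than that spread. Dusp1, the phosphatase that switches MAP kinases off, was at 7.98, 8.44 and 8.95 CPM in astrocytes and at 18.1, 26.8 and 29.8 CPM in pericytes (2.5-fold, −1.32 ± 0.13, adjusted p = 5.23e-10). Btg2, Dusp1 and Nr4a1 stood in astrocytes at 14.9%, 34.4% and 38.2% of their pericyte level, above all 5 pericyte markers given.

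At matched depth the shares of cells followed the levels. Btg2 was found in 41.1% of pericytes (exact 95% interval 38.7% to 43.5%, for counting error only) and 7.53% of astrocytes (6.96% to 8.13%). Ier3 was found in 27.6% of pericytes (25.5% to 29.8%) and 0.199% of astrocytes (0.114% to 0.324%). Ier2 was found in 14.3% and 0.636%, Junb in 8.48% and 0.548%, Dusp1 in 8.48% and 2.84%, Egr1 in 5.62% and 0.0997%, and Nr4a1 in 2.46% and 0.997% of pericytes and astrocytes. Jun was found in 9.33% of astrocytes (8.71% to 9.99%) and 7.14% of pericytes (5.96% to 8.46%), and the libraries, at 8.03% to 9.95% against 6.30% to 7.98%, did not overlap but nearly met. Fos was found in 1.25% of astrocytes (1.02% to 1.51%) and 0.176% of pericytes (0.0362% to 0.512%). Fosb was found in 1 astrocyte and in 0 of 1709 pericytes, which allows a share of up to 0.176%.

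**Figure D2:**
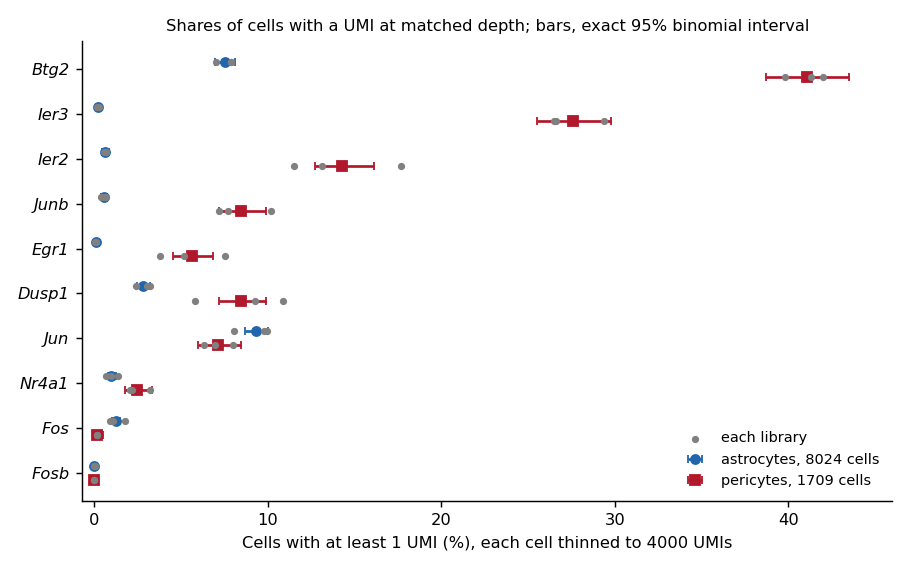
Percent of cells with at least 1 UMI of each gene after thinning every cell to 4000 UMIs, in 8024 astrocytes (circles) and 1709 pericytes (squares); bars are exact 95% binomial intervals and grey points are single libraries. Btg2 reaches 41.1% and Ier3 27.6% of pericytes, and the astrocyte share is the larger for Jun and Fos. Fosb was found in 1 astrocyte and 0 pericytes, so no difference can be read.

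The depth of a cell moved these shares. Thinned to 2000 UMIs, the Jun difference was 0.330 percentage points. Without thinning, the Jun shares were 19.6% in astrocytes and 8.72% in pericytes, and 3.24% of astrocytes held a Fos UMI.

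The other genes of the response, in lists fixed with earlier results in view, mostly followed the pericyte side. The counts below stand beside 42.8% of all genes tested that were higher in astrocytes and 36.9% that were higher in pericytes. Of 18 feedback inhibitors and RNA decay genes tested, 14 were higher in pericytes and 4 in astrocytes, with a median log2 difference of −1.52 against 0.10 over all genes. Sik1, a kinase that holds back CREB coactivators, was at 131 CPM in pericytes against 3.14 in astrocytes (−5.19, SE 0.0990, adjusted p = 3.33e-26). Gadd45b was higher in pericytes (−5.62, adjusted p = 1.44e-19), whereas its paralogue Gadd45g was higher in astrocytes (4.44, SE 0.152, adjusted p = 2.99e-20; 56.9 against 3.12 CPM). Spry4, an ERK inhibitor (−3.21), and Zfp36, which destabilises early gene RNAs (−3.53), were higher in pericytes.

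Of 5 other AP-1 genes tested, 4 were higher in pericytes and 0 in astrocytes, Jund among them (229 against 44.6 CPM, −2.14, SE 0.0553, adjusted p = 4.19e-23). Of 11 KLF and other early transcription factors, 7 were higher in pericytes, such as Cebpd (233 against 22.4 CPM, −3.16) and Klf2 (−5.49), and 2 in astrocytes, such as Klf15 (1.23). Of 4 other EGR and NR4A genes, the EGR corepressors Nab1 (−1.54) and Nab2 (−2.88) were higher in pericytes and Nr4a2 in astrocytes (2.70, SE 0.853, adjusted p = 0.00558), on 91 and 2 UMIs. All 5 tested effectors known from active neurons were higher in astrocytes. Bdnf was at 2.73 against 0.350 CPM (3.18), on 249 and 4 UMIs, and Homer1 at 30.7 against 8.78 CPM (2.03), on 2763 and 100 UMIs. Plk2, Inhba and Scg2 rested on 9, 16 and 1 UMIs in pericytes. The neuron markers summed to 10.1 to 14.2 CPM in astrocytes and 2.26 to 4.03 CPM in pericytes, and their part in this was not tested.

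The upstream ERK, SRF and CREB genes were mixed, with 9 of 21 higher in astrocytes and 11 in pericytes (median −0.13). The astrocyte count lies near the 42.8% of all genes tested. Elk3, an SRF partner, was at 76.4 CPM in pericytes against 4.65 in astrocytes (−3.81), and Crtc1, a CREB coactivator, at 17.1 CPM in astrocytes against 5.88 in pericytes (1.74). Of 13 heat shock genes, which also respond to tissue handling, 12 were higher in pericytes and 1 in astrocytes; Hspa1a was at 0.339 CPM in astrocytes and 22.3 in pericytes (−5.82, adjusted p = 4.31e-17). The part of these genes' response in the members' levels was not tested.

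How the UMIs were spread over cells differed between members. In pericytes Egr1 was concentrated: 33 cells with 3 or more UMIs held 57.0% of its 337 UMIs, with up to 13 in 1 cell and a mean of 2.29 per positive cell. Ier3 came next, with 41.9% of its 1303 UMIs in 131 such cells and up to 14 in 1 cell. Ier2 was spread more evenly, with 12% of 499 UMIs in 16 such cells. In astrocytes the means were 1.00 to 1.44 UMIs per positive cell, the highest for Jun.

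The pericytes with most Egr1, looked at after their values were seen, carried more of some other early genes but not of all. In the 33 cells with 3 or more Egr1 UMIs, Ier2 was at 96.2, 242 and 370 CPM in libraries 1 to 3, against 45.9, 33.2 and 34.5 CPM in the 2113 pericytes without Egr1. Nr4a1 was at 34.4, 90.8 and 79.4 against 5.21, 6.89 and 5.17 CPM, and Junb at 144, 30.3 and 26.5 against 28, 24.9 and 24.4 CPM. For Jun, Dusp1 and Btg2 the libraries went both ways. Jun was at 41.2, 0 and 26.5 against 21.6, 20.1 and 19.8 CPM, and Dusp1 at 41.2, 0 and 0 against 16.9, 26.4 and 29.3 CPM. Btg2 was at 172, 272 and 132 against 139, 145 and 151 CPM. Ier3 was at 55.0, 60.6 and 52.9 against 130, 102 and 105 CPM, but at matched depth it was found in 31.0% of the Egr1-rich cells and 27.7% of those without Egr1. Of the 33 cells, 23 were from library 1 and 5 from each other library, so the values of libraries 2 and 3 rest on few UMIs. The smooth muscle genes Acta2, Tagln and Myh11 summed to 1368 CPM in these cells against 169 in those without Egr1, and 4 of the 33 (12.1%) had 5 or more UMIs of them against 61 of 2113 (2.89%).

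Pericyte-class cells with 5 or more UMIs of those contractile genes (68 cells) had Egr1 at 107, 0 and 91.8 CPM, and the 1666 cells with none had it at 34.5, 14.4 and 21.3 CPM, so the libraries went both ways. Ier3 was lower in the contractile cells in each library, at 20.5, 43.5 and 86.1 against 146, 113 and 118 CPM. The 131 cells with 3 or more Ier3 UMIs had smooth muscle genes at 44.4 CPM, no Nr4a1 UMI and Egr1 at 11.1 CPM, against 26.4 CPM of Egr1 in pericytes without Ier3. Endothelial genes summed to 250 CPM in these 131 cells against 130 CPM in pericytes without Ier3. Microglia and macrophage genes summed to 81.9 against 52.8 CPM. Of the Ier3-rich cells 0.763% were contractile, and of those without Ier3 3.22%. The part of contractile cells, or of RNA from other cell types, in these values was not tested.

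Counted over all members, cells with 2 or more of them were about as frequent as the separate shares give, whereas single pairs varied. In pericytes 532 of 1709 cells (31.1%) held 2 or more members after thinning, against 551 from the product of shares within each library, a ratio of 0.965. The ratios of libraries 1, 2 and 3 were 0.920, 0.977 and 1.01. In astrocytes 165 of 8024 cells (2.06%) did, against 146, with a ratio of 1.13 that ran from 0.770 to 1.32 between libraries. Of pericytes 73.1% held at least 1 member, and of astrocytes 21.3%. At 8000 UMIs the astrocyte ratio was 1.15, at 1.09, 1.11 and 1.27 in libraries 1, 2 and 3. The pericyte ratio there, in 135 cells, was 0.928, at 0.947, 0.919 and 0.917. Cells of a library are not replicates, so no test was made.

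Single pairs in pericytes lay on both sides of a ratio of 1, and whether any departed from it beyond chance was not tested. Of the 24 pairs with at least 5 cells expected, 15 were above 1 and 5 were above 1 in each of the 3 libraries. Egr1 and Ier2 were found together in 28 cells against 14.5 (14, 7 and 7 cells against 8.49, 2.30 and 3.68). Of cells with Egr1, 29.2% held Ier2, and of cells without it, 13.5%. Junb and Ier2 shared 31 cells against 21.3, Ier2 and Dusp1 29 against 19.9, and Junb and Dusp1 19 against 11.8. The last of the 5 pairs was Ier2 and Btg2 (109 against 101), which in library 1 were nearly level (47 against 46.7). The set of pairs changed with depth. At 2000 UMIs in 2213 cells, 4 of 17 pairs were above 1 in each library. They were Egr1 and Ier2 (17 cells against 6.44), Junb and Ier3 (24 against 19.5), Ier2 and Ier3 (38 against 30.5) and Ier3 and Dusp1 (23 against 18.1), so of the 5 pairs only Egr1 and Ier2 was among them. At 8000 UMIs in 135 cells, 1 of 14 pairs was (Ier3 and Btg2, 29 against 27.6), and Egr1 and Ier2, with fewer than 5 cells expected, shared 9 against 4.16.

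At 4000 UMIs none of the pairs of Ier3 was above 1 in all 3 libraries, unlike at 2000 UMIs. Ier3 was found with Btg2 in 192 cells against 194, with Ier2 in 67 against 68.3 and with Egr1 in 27 against 26.9. With Junb it shared 49 cells against 40.4. Its count with Nr4a1 was 7 against 11.6. In astrocytes, Jun and Btg2 shared 55 cells against 56.3 and Fos and Jun 13 against 9.49, and 0 of the 7 pairs with 5 expected cells were above 1 in all 3 libraries. At 8000 UMIs in 5927 astrocytes, 4 of 13 pairs were: Jun with Junb (15 against 11.4), with Btg2 (162 against 136) and with Dusp1 (74 against 60.7), and Btg2 with Nr4a1 (19 against 15.8). Fos and Jun there shared 54 cells against 27.6, above 1 in 2 libraries.

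**Figure D3:**
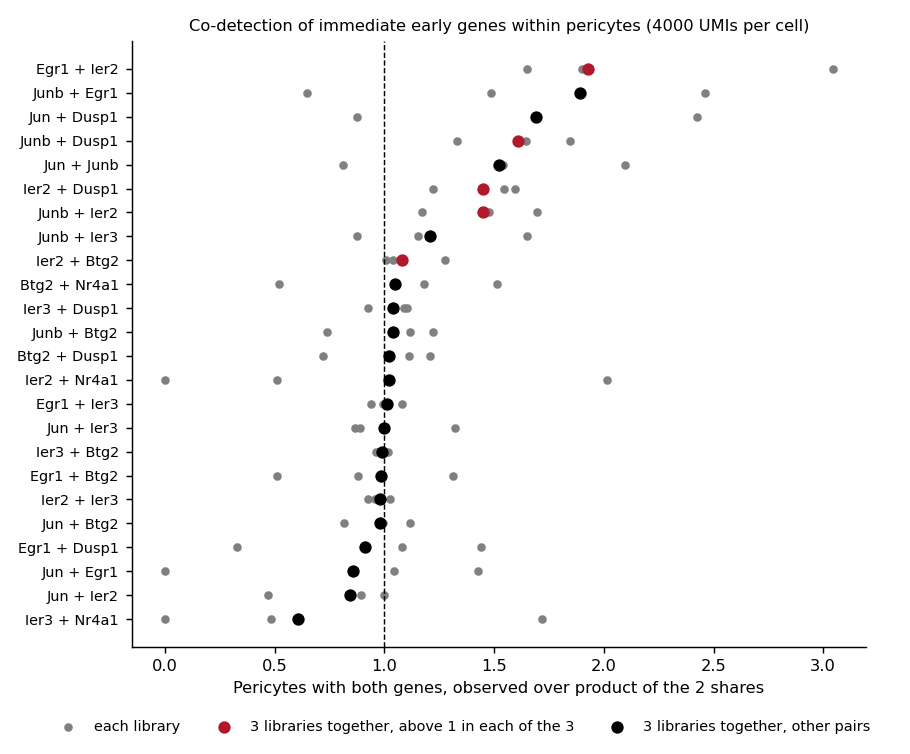
Pericytes that held both genes of a pair, as a ratio to the product of the 2 genes' shares, for the 24 pairs with at least 5 expected cells at 4000 UMIs per cell; large points are the 3 libraries together, red where each library was above 1, and small points are single libraries. Egr1 with Ier2 (28 cells against 14.5) stands highest, and Ier3 with Nr4a1 (7 against 11.6) lowest.

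Other genes were then compared between cells with 2 or more members and cells with none. The members were left out of the test, and depth was like in both sets: medians of 10433 and 10284 UMIs in 165 and 6315 astrocytes, and 5357 and 5613 in 532 and 460 pericytes. The astrocyte sets were not alike in neuron markers. These summed to 16.4 to 44.9 CPM in the libraries with several members and to 8.21 to 11 CPM with none. The part of neuron RNA in the genes below was not tested. In astrocytes 880 of 14032 genes (6.27%) were higher and 793 (5.65%) were lower in cells with several members (edgeR, adjusted p under 0.05). In pericytes 9 of 9129 genes (0.0986%) were higher and 18 (0.197%) lower.

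The 10 genes with the smallest p among those higher in astrocytes with several members were the histones Hist1h2ae, Hist1h1b and Hist1h1e, the DNA topoisomerase Top2a, the chromatin protein Hmgb2, the tubulin Tubb5 and its regulator Stmn1, the transcription factor Sox11, Tmsb4x, which binds actin, and Ptma. They came from a few cells. Of 239 Top2a UMIs in the 165 cells, 238 were in 3 cells, 1 in each library, and the 3 richest cells held 97.2% of Hist1h2ae, 99.2% of Hist1h1b and 79.2% of Hmgb2 UMIs. Tmsb4x (53.0%) and Ptma (47.1%) were less concentrated. The fit sees 3 libraries that each hold such a cell, and so its p-values do not count cells.

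Astrocytes with at least 2 UMIs of Sox11, a factor of immature neural cells, or of the division genes Top2a, Mki67 and Pclaf together were 338 of 8757 (3.86%). Without them, a choice made after seeing the data, 463 genes were higher and 594 lower, and 340 and 495 of these were among the genes above. Hist1h2ae then missed the threshold (1.10, adjusted p = 0.667), as did Tmsb4x (0.32, adjusted p = 0.146), Stmn1, Hmgb2, Hist1h1b, Hist1h1e and Sox11, whereas Tubb5 (0.82, adjusted p = 0.00914) and Ptma (0.33, adjusted p = 0.0205) did not.

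Igfbp2, which binds insulin-like growth factors, then led, at a log2 difference of 1.19 ± 0.121 (adjusted p = 1.42e-18), followed by Id3 (0.95), a target of BMP signalling, the metallothioneins Mt1 (0.52) and Mt3 (0.49), Nrg1 (0.99), Aldoc (0.49) and Gapdh (0.51). The order depended on the setting. With counts thinned to 4000 UMIs and all cells kept, Nrg1 led (1.82, edgeR adjusted p = 1.79e-25). Igfbp2 was not among the 10 higher genes with the smallest p there, nor in the fit with all cells. How Igfbp2 UMIs were spread over cells was not looked at. The genes lower both with and without the Sox11 and division cells were led by Kcnd2, a potassium channel (−0.85 ± 0.0792 with all cells and −0.67 ± 0.0774 without), Kcnip4 (−1.22 and −1.02) and Adgrb3 (−0.67 and −0.53). Gene span differed between the 2 directions: without the Sox11 and division cells, the genes that were higher had a median span of 5.95 kb and those that were lower 175 kb, against 24.2 kb for all genes tested. In pericytes the medians were 3.81 and 374 kb, against 27.6 kb. Span was looked at after the genes were seen, and its part was not tested.

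In pericytes with several members, Spp1, a secreted phosphoprotein, was at 628, 764 and 909 CPM against 320, 523 and 248 CPM (1.08 ± 0.121, adjusted p = 6.14e-06). Mgp, an inhibitor of calcification, was at 2006, 1709 and 1715 against 1421, 1379 and 1289 CPM (0.40 ± 0.0506, adjusted p = 4.63e-05). The remaining genes that were higher were Nts, Myl6, Id3, Anxa5 and the ribosomal protein genes Rps3a1, Rps2 and Rps27a. Casq2, a calcium-binding protein of muscle stores, was lower (−0.64 ± 0.0890, adjusted p = 2.11e-04). DESeq2 called 1 of these genes, so most calls here depend on the tool.

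Of 54 genes of the companion lists tested in pericytes, 0 were called by edgeR. It gave 10 of them an unadjusted p under 0.05, as it did 848 of all 9129 genes tested. Of 66 genes of the lists tested in astrocytes, 9 were higher and 1 lower in cells with several members, beside the 6.27% and 5.65% of all genes tested. The 9 were Gadd45g (1.47 ± 0.145, adjusted p = 1.00e-09), Ier5 (1.28 ± 0.298, adjusted p = 0.00232) and 7 of 10 heat shock genes, led by Hsp90aa1 (1.00 ± 0.126, adjusted p = 1.57e-07). Without the Sox11 and division cells, 5 heat shock genes were called, 4 of them among the 7, such as Hspe1 (0.53, adjusted p = 3.08e-04) and Hspa8 (0.36, adjusted p = 0.00219). Hsp90aa1, Hsph1, Dnaja1, Gadd45g and Ier5 were not called there.

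The same 338 astrocytes carried more Btg2, and were deeper, with a median of 14228 UMIs against 9773 in the rest. Btg2 was at 68.8, 53.8 and 56.0 CPM in them and at 18.1, 19.6 and 19.5 CPM in the remaining 8419 astrocytes, and the libraries did not overlap. All 21 astrocytes with 5 or more Btg2 UMIs, up to 20 in 1 cell, were among the 338. At 4000 UMIs, Btg2 was found in 13.8% of 333 such cells and 7.26% of 7691 others. Jun was at 38.9, 42.3 and 31.2 CPM against 27.4, 22.6 and 28.7 CPM. At 4000 UMIs, Jun was found in 11.4% of such cells and 9.24% of the others. The libraries went both ways, at 9.45%, 10.7% and 13.9% against 9.81%, 7.93% and 9.75%. Fos was at 1.36, 1.44 and 5.38 CPM against 2.57, 4.19 and 4.97 CPM, and Dusp1 at 8.42 CPM against 8.41 in all. These cells were chosen by genes seen in the comparison above, so these values are a description with no test.

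**Figure D4:**
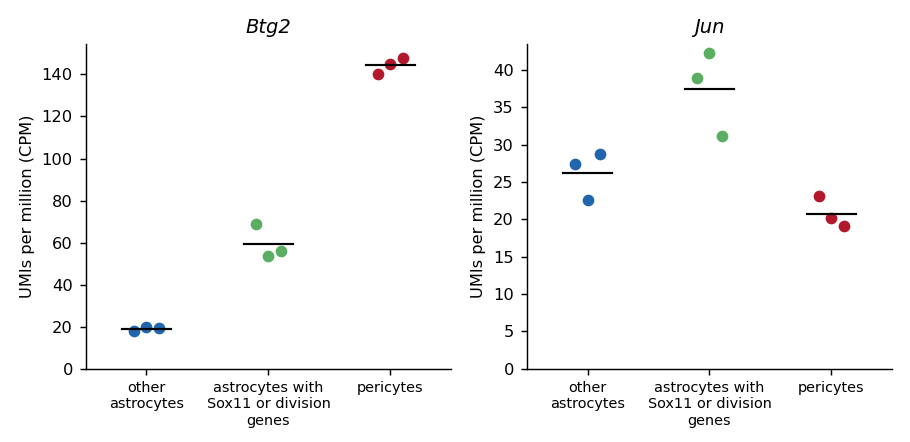
CPM of Btg2 and Jun in 338 astrocytes with Sox11 or division genes, in the other 8419 astrocytes and in pericytes, with 1 point per library and a line at their mean. Btg2 is at 53.8 to 68.8 CPM in the first and 18.1 to 19.6 CPM in the second, without overlap.

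The 4 groups were compared with mice as the replicates, in cells whose top hashtag had at least 10 UMIs and at least 3 times the next. Of 2470 such barcodes, 1658 carried a hashtag listed for a mouse. The classes differed greatly in this: 69.1% of pericytes had a clear hashtag and 5.09% of astrocytes did. All 16 mice had 36 to 110 pericytes, whereas 11 mice had 5 or more astrocytes (2 NoFC, 2 FC, 4 NoFR and 3 FR), and mouse FC 1 held 159 of the 173 in FC. Sums per mouse alone do not tell fewer cells with a gene from less RNA per cell. For Ier3 the share of cells per mouse is also given below. Libraries 2 and 3 lack some groups, and library 1 holds 2 mice of each. Counts were fitted over all 4 groups with library as a covariate, and 6 pairs of groups were taken as contrasts.

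In pericytes 1 member was called in 1 of the 6 contrasts: Ier3 was lower in NoFR than in FC mice. These groups also differ in time after conditioning, 24 h in NoFR and 90 min in FC mice. NoFR mice also stayed in the home cage on the day of sampling, whereas FC mice were in the chamber. The part of either in the Ier3 values was not tested. Ier3 was compared per mouse. It was at 59.1, 53.3, 72.5 and 120 CPM in NoFR mice 1 to 4 and at 123, 215, 111 and 140 CPM in FC mice 1 to 4. Mouse NoFR 4 lay within the FC range and the other 3 lay below it. The means were 76.2 ± 30.3 and 147 ± 46.7 CPM (SD, n = 4), and the log2 difference was −1.19 ± 0.239 (SE; edgeR adjusted p = 0.00317, with 0.443% of 6543 genes called in this contrast). DESeq2 also called it (−1.22, adjusted p = 0.00995). The groups met within 1 library, library 1, where FC mice were at 123 and 215 CPM and NoFR mice at 59.1 and 53.3 CPM. The call was lost without FC 2 (−0.97, adjusted p = 0.133) and without NoFR 1 (−1.03, adjusted p = 0.0907).

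Ier3 was at 152, 134, 79.5 and 106 CPM in NoFC mice and at 131, 164, 98.4 and 133 CPM in FR mice. NoFR was below both, at −0.72 ± 0.228 against NoFC (adjusted p = 0.148) and, for FR over NoFR, 0.90 ± 0.233 (adjusted p = 0.127), and neither difference passed. Without NoFR 4, both did (−0.97, adjusted p = 0.0232, and 1.16, adjusted p = 0.0212). The share of pericytes with an Ier3 UMI was 18.6% to 38.0% in NoFR mice and 28.9% to 53.8% in FC mice. Smooth muscle genes summed to 53.3 to 593 CPM in NoFR mice and 66.8 to 407 CPM in FC mice, with 10 of 230 and 7 of 296 contractile cells, and median depth was 4566 to 5178 and 4917 to 5348 UMIs. Mouse NoFR 4, with the highest Ier3 of its group, also had its highest smooth muscle sum.

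No other member was called in any contrast. In NoFR over NoFC 1.09%, in FR over NoFR 0.0917% and in each of FC over NoFC, FR over NoFC and FR over FC 0.0% of genes were called, so that few genes of any kind passed. At an unadjusted threshold of 0.05, 2, 2, 3 and 2 of the 9 members fitted were below it in FC over NoFC, NoFR over NoFC, FR over NoFR and NoFR over FC, and 0 in the others. Over all 6543 genes tested, 297, 562, 405 and 503 were below it in the same contrasts. In FR over NoFC and FR over FC, 421 and 314 genes were. DESeq2 called no member besides Ier3.

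Junb was at 34.6, 66.8, 35.0 and 28.7 CPM in NoFC mice and at 17.4, 26.6, 21.0 and 10.9 CPM in NoFR mice. The 2 groups did not overlap (41.3 ± 17.3 and 19.0 ± 6.58 CPM, n = 4), as was true of 4.94% of all genes in this contrast, and the log2 difference of −1.0 ± 0.422 did not pass (adjusted p = 0.411). It was at 16.7, 30.4, 40.1 and 18.7 CPM in FC mice and at 31.4, 62.0, 16.4 and 30.3 CPM in FR mice, which overlapped with both.

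Egr1 ranged widely among the mice of each group, and the groups overlapped. It was at 40.0, 141, 41.3 and 5.74 CPM in NoFC mice, at 53.0, 26.3, 11.1 and 4.68 in FC, at 59.1, 26.6, 74.8 and 50.9 in NoFR and at 73.2, 31.0, 19.7 and 6.06 in FR mice. The difference of NoFR over FC was 1.34 ± 0.499 (adjusted p = 0.382), in the opposite direction to Ier3. Ier2 was at 42.1 to 47.4 CPM in FC mice, the narrowest range of any group, and at 43.0 to 94.9 in NoFC, 29.1 to 67.8 in NoFR and 18.2 to 75.3 CPM in FR mice.

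Btg2 had means of 141 ± 15.1 in NoFC, 153 ± 26.2 in FC, 172 ± 28 in NoFR and 119 ± 18.1 CPM in FR mice. FR over NoFR was −0.54 ± 0.186 (adjusted p = 0.551), with FR mice at 102 to 139 and NoFR mice at 131 to 191 CPM. Jun had means of 20.2 to 23.7 CPM and Dusp1 of 14.8 to 23.5 CPM in the 4 groups. Nr4a1 was at 12.6 ± 8.99 in NoFC and 2.33 ± 2.93 CPM in FR mice, on 21 and 3 UMIs (−1.91 ± 0.992, adjusted p = 0.782). Fos had 1 UMI in the pericytes of all 16 mice, and Fosb none.

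**Figure D5:**
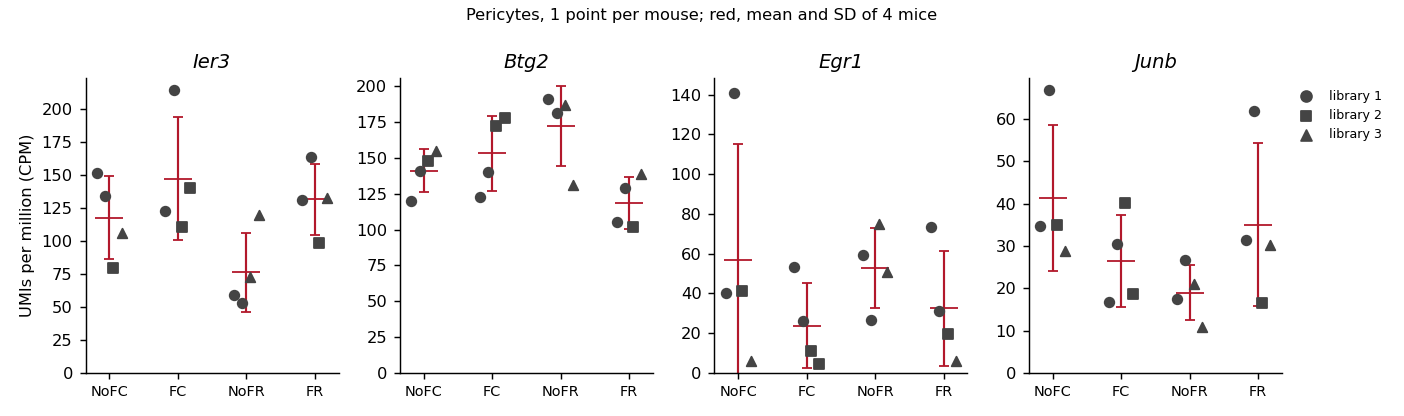
CPM of Ier3, Btg2, Egr1 and Junb in the pericytes of each mouse (grey, shape by library) with the mean and SD of 4 mice per group (red, cut at 0 for Egr1 in NoFC). Ier3 is at 53.3 to 120 CPM in NoFR and 111 to 215 CPM in FC mice, and Egr1 runs from 5.74 to 141 CPM within NoFC.

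Among the companion genes tested in pericytes, 46 in each contrast, 7 were lower and 1 higher in NoFR than in NoFC mice. Over all 6543 genes tested in this contrast, 38 were lower and 33 higher. Klf9, a factor induced by glucocorticoids, was at a mean of 303 against 550 CPM (−0.93 ± 0.136, adjusted p = 8.24e-06) and Cebpd at 191 against 341 CPM (−0.95 ± 0.188, adjusted p = 0.00185). The others that were lower were the heat shock genes Hspa8 (−0.67), Hsp90aa1 (−0.71), Dnaja1 (−0.70), Hsph1 (−1.45) and Hspb1 (−0.76). Ier5 was higher (3.12 ± 0.666, adjusted p = 0.00449; 39.4 against 3.96 CPM). Klf9 was also the 1 companion gene called in NoFR over FC (−0.84 ± 0.150, adjusted p = 7.23e-04) and in FR over NoFR (0.82 ± 0.142, adjusted p = 7.71e-04). In these contrasts 0.443% and 0.0917% of all genes were called. Every group contrast with a called companion gene held NoFR, which alone stayed in the home cage on the day of sampling. The part of this was not tested.

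In astrocytes with a clear hashtag no member was called in any contrast by edgeR or DESeq2, and none of the 7 that could be fitted passed the low-count filter. In FR over FC, 1 member had an unadjusted p under 0.05 (edgeR), as did 91 of all 3293 genes. Called genes were 0.0304%, 0.0911% and 0.0304% of 3293 in FC, NoFR and FR over NoFC, and 0.0% in the other 3 contrasts. Fos had 9 UMIs in the 159 cells of mouse FC 1, 4 in the 46 cells of FR 3, 3 in the 14 cells of NoFR 3, 1 in NoFC 3 and 0 in the other 7 mice. Jun had 46 and Btg2 41 UMIs in FC 1, and 0 to 11 in each other mouse. At this depth a difference between groups was not detectable: the 95% interval of the Jun difference of FC over NoFC, for example, ran from −0.26 to 6.69 on the log2 scale. Egr1 and Ier3 had 0 UMIs in the astrocytes of all 11 mice fitted, and Fosb had none.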

How the data were processed

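Single cells of the amygdala were sequenced in 3 hashtagged 10x libraries. The authors deposited raw UMI counts per gene and hashtag for each barcode (mm10; the processing notes name Cell Ranger 3.0, the matrix header 7.0.0), with mice listed by hashtag. Members, lists and rules were chosen with earlier results of these data known. Counts were summed per library and class, or per mouse and class (at least 5 cells), and tested with edgeR 4.0.16 (R 4.3.3; TMM, filterByExpr, quasi-likelihood test, Benjamini-Hochberg over all genes, threshold 0.05), with library as a block or covariate. Cells with several members (at least 2) and none were defined after thinning to 4000 UMIs, then summed per library without thinning. Genes of the companion lists were named as those with the smallest p among the called, at most 6 per list. Co-detection was set against the product of the 2 shares within each library. Intervals are exact (Clopper-Pearson, 95%) and cover counting error only; a count of 0 was given a limit of 3 counts. Scripts were tested on simulated data. Alternatives were DESeq2 1.42.0, other size factors, no filter, other depths, stricter classes, looser hashtags and leaving out libraries or mice. Whether mice of a group came from separate cages or days was not given in the sources used here. The 812 barcodes with a clear hashtag of no listed mouse were left out of the groups.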

Additional observations from a re-analysis of the deposited data

Results flagged for a closer look

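Of 39 groups of 4 mice compared with Dixon's limit, 6 held a mouse far from the other 3. The limit is set at about 1 in 20 by chance, but this rate does not hold here. Where the other 3 mice were at 0, 1 UMI is enough for a flag, as for Fos in both classes and Junb in astrocytes. The same mice also recur over genes, so no excess over chance is read from the 6. In pericytes, mouse NoFC 2 stood apart for Junb, at 66.8 CPM against 28.7 to 35.0, and for Ier2, at 94.9 CPM against 43.0 to 47.7. The same mouse had the highest Egr1 of all 16, at 141 CPM. Mouse NoFR 4 was low for Btg2, at 131.0 CPM against 181 to 191, and it was also the mouse of its group with the highest Ier3. Fos in the pericytes of NoFR 3, at 2.34 CPM, was 1 UMI where the others had 0. In astrocytes, Fos in NoFR 3 was at 28.2 CPM on 3 UMIs and Junb in NoFR 1 at 8.14 CPM on 1 UMI, and the other mice of the group were at 0.

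The 2529 barcodes that were neither astrocyte nor pericyte, which no comparison used, had a median of 761 UMIs and carried 9 of the 10 genes above the 0.696 CPM that a count of 0 allows. Over all of them, Btg2 was at 49.2 CPM, Ier3 at 26.2, Jun at 22.7, Egr1 at 16, Ier2 at 12.1, Dusp1 at 11.6, Junb at 5.11, Nr4a1 at 3.25 and Fos at 2.55 CPM. Of the 69 Egr1 UMIs, 27 were in 1 barcode.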

How the results depend on the processing

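The class differences of 8 of the 9 tested members kept their direction and call in all alternatives. Jun missed the threshold once, with sums per mouse and the mouse as a block (0.27, adjusted p = 0.486). In astrocytes with several members against none, 1673 genes were called. They were 880 higher and 793 lower. DESeq2 called 931 (576 and 355), a limit of at least 3 members 29 (0 and 29, from 6 cells), no low-count filter 765 and 966, and status set at 8000 UMIs 2853 (1482 and 1371). Both alternatives chosen after seeing the data gave 680 (counts thinned to 4000 UMIs, 292 and 388) and 1057 (without Sox11 and division cells, 463 and 594). Lower calls outnumbered higher ones in both of these, with at least 3 members, with no low-count filter and without library 1 (763 and 845). Leaving out 1 library gave 691 (without library 3) to 1608, with 743 without library 2. In pericytes 27 genes were called. DESeq2 called 1, no low-count filter 91, at least 3 members 11, and 8000 UMIs 0 (165 at an unadjusted p under 0.05); leaving out 1 library gave 13 (library 2) to 31, and 15 without library 3. The cause of these shifts was not tested. Libraries hold cells of both sets, so the library is a replicate block; without the replicate block, 7 genes were called in pericytes and 1040 higher and 911 lower in astrocytes. The ratio of observed to expected pericytes with several members, 0.965, was 1.03 at 2000 and 0.928 at 8000 UMIs. The ratio of astrocytes, 1.13, was 1.09 at 2000 and 1.15 at 8000 UMIs. Which pairs stood above 1 in each library changed with depth.

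Over the 4 groups, 1 call of a member was made, of Ier3. Leaving out 1 mouse gave 0 calls (FC 2 or NoFR 1) to 3, all of Ier3 in 3 contrasts (NoFR 4). Ier3 in NoFR over FC ran from −1.42 to −0.96 over 22 alternatives, with adjusted p from 2.05e-04 to 0.133, and 20 kept the call. Shallow astrocyte sums per mouse limit what the groups can show.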
